A study of Mus musculus with 2 samples.

Results

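The 9 genes described here mark the endothelial cells that line the blood vessels and sinusoids of the liver: Pecam1, Kdr, Cdh5, Tek, Tie1, Eng, Lyve1, Vwf and Nos3. They were found by gene name among the non-control probes of the array, which carried 27962 gene names. The array listed 8 of the 9 under these names, and Lyve1 was found through the accession of its probe, since the array still calls it Xlkd1. The liver RNA came from male C57BL/6 mice that were apoE-KO on both diets, so that no wild-type group entered the comparison. From 10 weeks of age the mice received normal chow or a chow with 1.25% Chol, the high-Chol diet, for 1 week, and 3 independent experiments per diet were hybridized to one-colour Agilent arrays. How many mice contributed to each array was not given in the sources used here. RNA of whole liver was measured, so fewer endothelial cells and less RNA per endothelial cell cannot be told apart.

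Endothelial cells of the liver sinusoid are perforated and lie on almost no basement membrane, so that lipoproteins and other plasma constituents reach the hepatocytes directly. They express scavenger and hyaluronan receptors such as Lyve1 and little von Willebrand factor, whereas the endothelium of the larger hepatic vessels stores von Willebrand factor and forms tighter junctions. Both depend on VEGF signaling through Kdr (VEGFR2), on angiopoietin signaling through Tek (Tie2) and its partner Tie1, and on BMP signaling, in which endoglin (Eng) is a co-receptor. VE-cadherin (Cdh5) and PECAM-1 (Pecam1) join the cells to each other, and endothelial nitric oxide synthase (Nos3) produces the nitric oxide that relaxes the vessel wall.

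The 9 genes were represented by 16 probes of 60 bases on 52 spots. Of these probes, 13 gave a signal well above background on each of the 6 arrays, so that each of the 9 markers could be measured on every array, and 3 were well above background on 0 arrays. The probe pairs of Cdh5, Lyve1 and Pecam1 are shown by their first 30 bases as the array file lists them, because the Cdh5 probes differed in the same direction between the diets, the Lyve1 probes did not, and 1 of the Pecam1 probes gave no signal above background. The array file gives its probe positions on mm7.
Cdh5, brightest probe, chr8:102744763-102744822, plus strand: acttattataagactctagttctcacagac
Cdh5, other probe, chr8:102744103-102744162, plus strand: tccgtcaacttcaggaaaatggcttgtcga
Lyve1, brightest probe, chr7:106765983-106766042, minus strand: cactttgtgtgcctttaacaaatacattat
Lyve1, other probe, chr7:106767480-106767538, minus strand: cacccaaaactacggtgcgatgcttagaag
Pecam1, brightest probe, chr11:106790116-106791969, minus strand: aacagcgagaagatttctgagcctagtgtg
Pecam1, other probe, chr11:106790785-106790844, minus strand: taattagttcttacatcaaaccattctgaa

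The brightest Cdh5 probe has a G and C content of 35% and the other Cdh5 probe one of 45%, and 601 bases of the genome lie between their positions. All 3 reading frames of the brightest Cdh5 probe, read as listed, contain a stop codon, whereas 1 frame of the other Cdh5 probe is open. The brightest Pecam1 probe covers 1854 bases of the genome with its 60 bases and therefore spans at least 1 intron. The other Pecam1 probe lies inside that interval, has stop codons in all 3 frames, and was not well above background on any array. The other Kdr probe, at chr5:75382167-75382226, lies 30571 bases from the brightest one and was not well above background on any array, although it was printed 10 times on each. The third Vwf probe, at chr6:125627345-125627404 and 81924 bases from the brightest, was likewise not well above background. Exon and UTR positions of the probes were not analysed here.

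The arrays were not evenly distributed over the 2 slides. The slides were told apart by the scan date of each array and not by a slide label. The version of the software also differed between them, 9.5 for slide 1 and 9.1 for slide 2. All 3 normal chow arrays and high-Chol array 1 lay on slide 1, and high-Chol arrays 2 and 3 lay on slide 2, which was brighter, with a 75th percentile of the signal of 799 and 762 against 271 to 373 on slide 1. Each value below is the log2 of the background-subtracted signal relative to the 75th percentile of its array. Across 16725 genes tested by limma, 450 were higher and 38 were lower on the high-Chol diet at an adjusted p under 0.05, which is 2.92% of the genes, and 2.69% counting the higher genes alone. The median difference of all genes was -0.02. A fit with slide as a block takes its diet difference from slide 1, where array 1 was the only high-Chol array. With slide as a block, 11 genes were called, and since slide 2 held no normal chow array, diet and slide cannot be fully told apart. The liver markers were present: 8 of 8 hepatocyte genes were well above background on all 6 arrays.

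None of the 9 endothelial markers was called in this comparison, so 0 of 9 stands beside the 2.92% of all genes. At an unadjusted p under 0.05, limma gave 1 of 9 markers, Cdh5, against 21.2% of all genes, and the methods' t-test gave 1 of 9 against 16.7%. The markers did not differ in 1 common direction, with 5 higher and 4 lower on the high-Chol diet and differences from -0.29 to 0.94. Their median difference was 0.06, which was 0.08 above the median of all genes. It turned to -0.18 with median scaling, where the median of all genes was -0.26, and to -0.11 with quantile normalization. It was also below 0 with a normexp background (-0.051) and with the mean of the probes of a gene (-0.057), and ranged from -0.070 without high-Chol array 1 to 0.126 without normal chow array 3, so its sign was not stable. A difference above 1.5-fold was seen in 1 of 9 markers against 21.3% of all genes, and separate values of the diets on all 6 arrays in 1 of 9 against 25.8% of all genes, in both cases Cdh5.

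**Figure D1:**
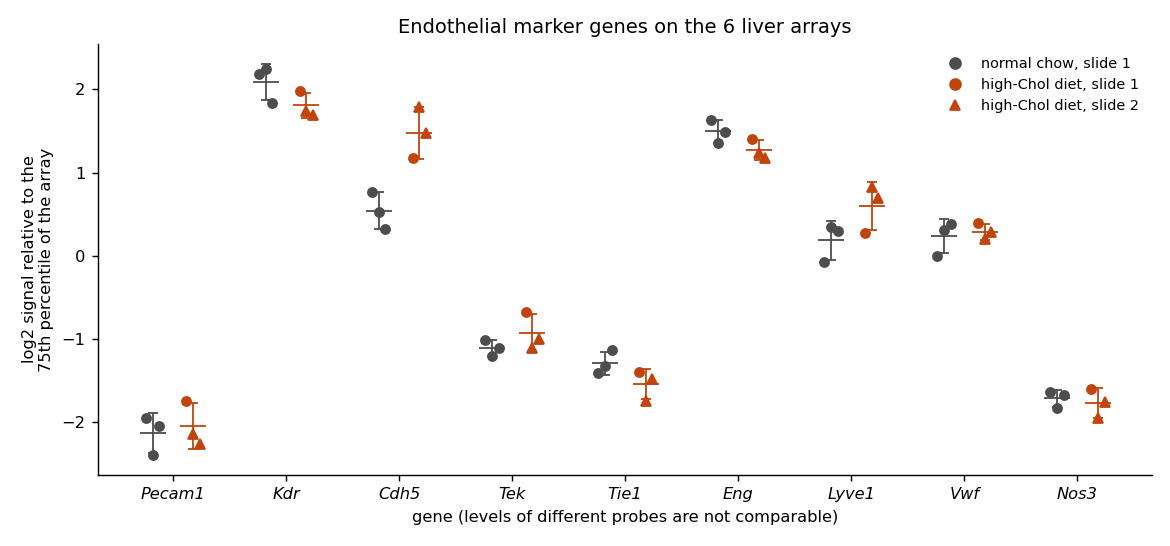
Each point is 1 array, with the log2 signal relative to the 75th percentile of the array on the vertical axis and the 9 markers on the horizontal axis, and bars give the mean and SD of 3 arrays per diet. Only the Cdh5 values of the diets are separate, from 0.32 to 0.77 on normal chow and from 1.17 to 1.79 on the high-Chol diet.

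Cdh5 encodes VE-cadherin, the adhesion molecule of the endothelial adherens junction. Its brightest probe read 0.77, 0.52 and 0.32 under normal chow versus 1.17, 1.79 and 1.47 under the high-Chol diet. The lowest high-Chol array was therefore above the highest normal chow array. The difference was 0.94 on the log2 scale with a standard error of 0.21, or 1.92-fold with a 95% interval from 1.36 to 2.71. It did not pass the adjustment over all genes (limma, adjusted p = 0.0719). Of all genes, 9.91% had a larger difference in either direction. The other Cdh5 probe, the one with an open reading frame, read -0.97, -1.48 and -1.26 under normal chow versus -0.56, -0.64 and -0.83 under the high-Chol diet. The diets were separate on this probe also, with a difference of 0.56 and a 95% interval from 0.12 to 0.99 (limma, adjusted p over all probes = 0.178). Over the 6 arrays the probes of Cdh5 had a Pearson's r of 0.82.

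On slide 1, the single high-Chol array was above each of the 3 normal chow arrays on both Cdh5 probes, and that array was outside the normal chow range for 54.7% of all genes. The diet difference of the slide block fit rests on this single high-Chol array. A fit that included the slide as a block gave a difference of 0.63 for Cdh5 (limma, adjusted p = 0.528), and no marker had a lower adjusted p in it. Cdh5 was called without high-Chol array 1, with a difference of 1.09 (limma, adjusted p = 0.0156), but 18.4% of all genes were called there, and it was called with a trended and robust variance prior (limma, adjusted p = 0.0409), where 3.22% of all genes were called. Set against the mean of the other 8 markers, each centred on its own mean, Cdh5 stood at -0.24, -0.46 and -0.72 under normal chow versus 0.05, 0.86 and 0.51 under the high-Chol diet. This restates the Cdh5 values on another scale and is no further support for them.

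Pecam1, the adhesion molecule of endothelial cell contacts that platelets and leukocytes also carry, read -1.95, -2.40 and -2.05 under normal chow versus -1.74, -2.14 and -2.27 under the high-Chol diet. The values overlapped, the highest being the high-Chol array of slide 1. The difference was 0.08 with a 95% interval from -0.40 to 0.57 (limma, adjusted p = 0.827), and its sign was kept in 11 of 17 alternatives. Some alternatives, such as the other probe filters, left the value unchanged, so the count is no measure of stability.

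**Figure D2:**
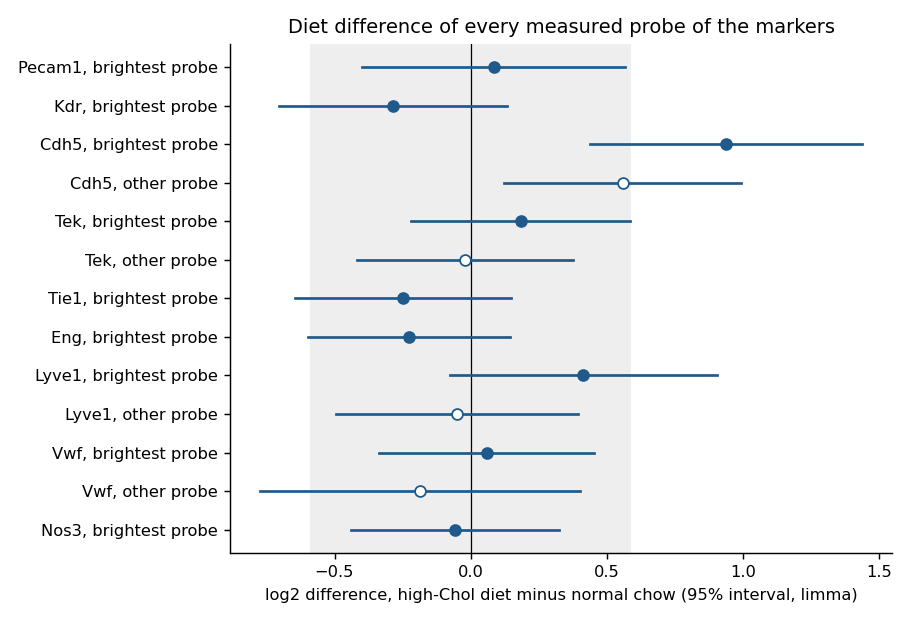
The horizontal axis gives the log2 difference of high-Chol diet minus normal chow for the 13 measured probes, with the 95% interval from limma. Filled circles are the brightest probe of each gene and open circles its other probes, and the grey band marks differences under 1.5-fold. The intervals of both Cdh5 probes lie above 0, and those of the other 11 probes include 0.

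Among the receptors, Kdr transmits the VEGF signal that maintains the sinusoidal endothelium. It read 2.19, 2.25 and 1.84 under normal chow versus 1.98, 1.74 and 1.69 under the high-Chol diet. The slide 1 array of the high-Chol diet lay within the normal chow range and both slide 2 arrays lay below it. The difference was -0.29 with a 95% interval from -0.70 to 0.13 (limma, adjusted p = 0.373). It was -0.11 when the slide was included as a block, a value that rests on the slide 1 high-Chol array.

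For Tie1, an orphan receptor kinase that pairs with Tie2, the slide 2 arrays were likewise below all normal chow arrays. It read -1.41, -1.33 and -1.14 under normal chow versus -1.40, -1.75 and -1.48 under the high-Chol diet, which is a difference of -0.25 (95% interval -0.64 to 0.14, limma, adjusted p = 0.398). Eng, the co-receptor for BMP9 and TGF-beta, read 1.64, 1.36 and 1.49 under normal chow versus 1.41, 1.23 and 1.17 under the high-Chol diet, which is a difference of -0.22 (95% interval -0.59 to 0.14, limma, adjusted p = 0.409). For Kdr, Tie1 and Eng the negative sign was kept in 17 of 17 alternatives, some of which left the values unchanged. The diets overlapped for each of these genes on all 6 arrays, and the sizes of the differences varied. They were -0.11, -0.11 and -0.09 when the slide was a block, and with median scaling -0.52, -0.49 and -0.46, where the median of all genes was itself -0.26.

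Tek, the receptor of the angiopoietins, read -1.02, -1.21 and -1.11 under normal chow versus -0.68, -1.11 and -0.999 under the high-Chol diet. The diets overlapped, with a difference of 0.18 (95% interval -0.22 to 0.58, limma, adjusted p = 0.533). The other Tek probe, which lies 132315 bases away, differed by -0.02 (95% interval -0.42 to 0.37), and the probes ran against each other over the 6 arrays, with a Pearson's r of -0.78.

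Lyve1, the hyaluronan receptor of sinusoidal and lymphatic endothelium, read -0.08, 0.34 and 0.30 under normal chow versus 0.28, 0.82 and 0.70 under the high-Chol diet with its brightest probe. Both slide 2 arrays were above all normal chow arrays and the slide 1 array was within their range. The difference was 0.41 with a 95% interval from -0.07 to 0.90 (limma, adjusted p = 0.290). It was 0.09 when the slide was included as a block, a value that rests on the slide 1 high-Chol array. Its other probe read -2.09, -2.43 and -1.93 under normal chow versus -2.07, -2.14 and -2.39 under the high-Chol diet, which is a difference of -0.05 with a 95% interval from -0.50 to 0.39. The Lyve1 probes printed above lie 1438 bases apart and did not run together over the arrays, with a Pearson's r of -0.35, so the value of Lyve1 depended on the probe.

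Vwf, the clotting protein that tethers platelets and is stored in the endothelium of larger vessels, read -0.0016, 0.31 and 0.38 under normal chow versus 0.39, 0.20 and 0.28 under the high-Chol diet. All 3 high-Chol values were within or next to the normal chow range, and the difference was 0.06 (95% interval -0.33 to 0.45, limma, adjusted p = 0.852). The second Vwf probe, 634 bases away, differed by -0.18 (95% interval -0.77 to 0.40). Nos3 read -1.64, -1.83 and -1.68 under normal chow versus -1.60, -1.96 and -1.76 under the high-Chol diet, which is a difference of -0.06 (95% interval -0.43 to 0.32, limma, adjusted p = 0.851).

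For the 8 markers other than Cdh5, the 95% intervals of the fold change on the brightest probe reached from 0.616-fold for Kdr to 1.87-fold for Lyve1. Differences of up to these sizes were therefore not excluded by 3 arrays per diet, and a p that missed the threshold does not show that the diets were alike.

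The probes of Kdr, Pecam1 and Nos3 were printed 10 times on each array, which gives the spread of single spots within an array. The Kdr spots had an SD of 0.045 to 0.099 within an array, against 0.22 between the normal chow arrays and 0.16 between the high-Chol arrays. The Pecam1 spots had an SD of 0.071 to 0.121 within an array, against 0.24 between the normal chow arrays and 0.27 between the high-Chol arrays. For Nos3 the SD was 0.059 to 0.105 within an array, against 0.10 between the normal chow arrays and 0.18 between the high-Chol arrays. The values of the arrays are means over these spots, so the SDs describe different quantities and are given side by side without a test.

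**Figure D3:**
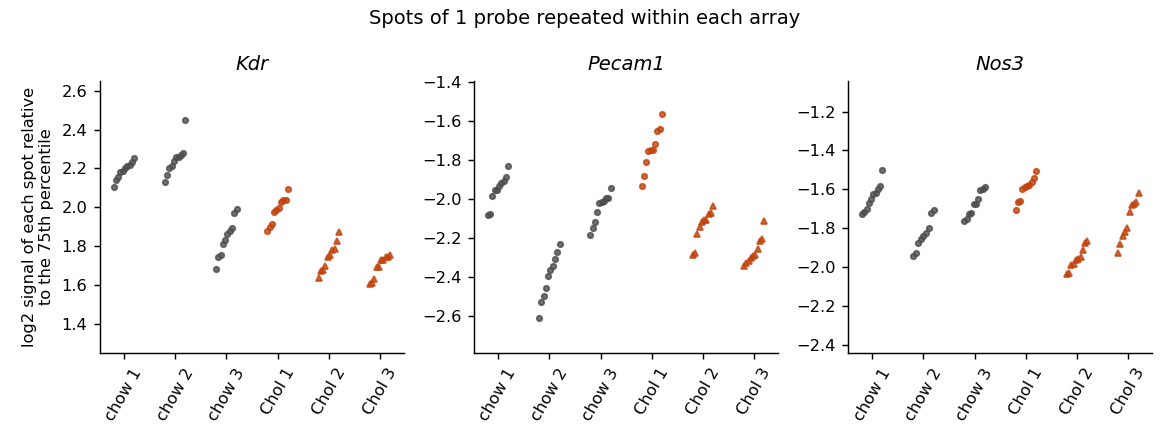
Each point is 1 of the up to 10 spots of a probe on an array, sorted by value, with the log2 signal relative to the 75th percentile of the array on the vertical axis and the arrays on the horizontal axis (chow, normal chow, grey; Chol, high-Chol diet, orange; circles slide 1, triangles slide 2). The Pecam1 spots of normal chow array 1 lie from -2.08 to -1.83 and those of array 2 from -2.61 to -2.23, without overlap.

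The diets were also compared with the high-Chol arrays of each slide taken by themselves. On slide 1 alone, the high-Chol array was outside the range of the normal chow arrays for Pecam1, Cdh5, Tek, Vwf and Nos3, or 5 of 9 markers against 54.7% of all genes, and it was the higher one in each. With the slide 2 arrays as the high-Chol group, the separate markers were Kdr, Cdh5, Tie1, Eng and Lyve1, again 5 of 9 against 54.2% of all genes. Both counts are close to the share of all genes, and Cdh5 was in both sets. The part of the slide in these differences was not tested beyond these values.

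**Figure D4:**
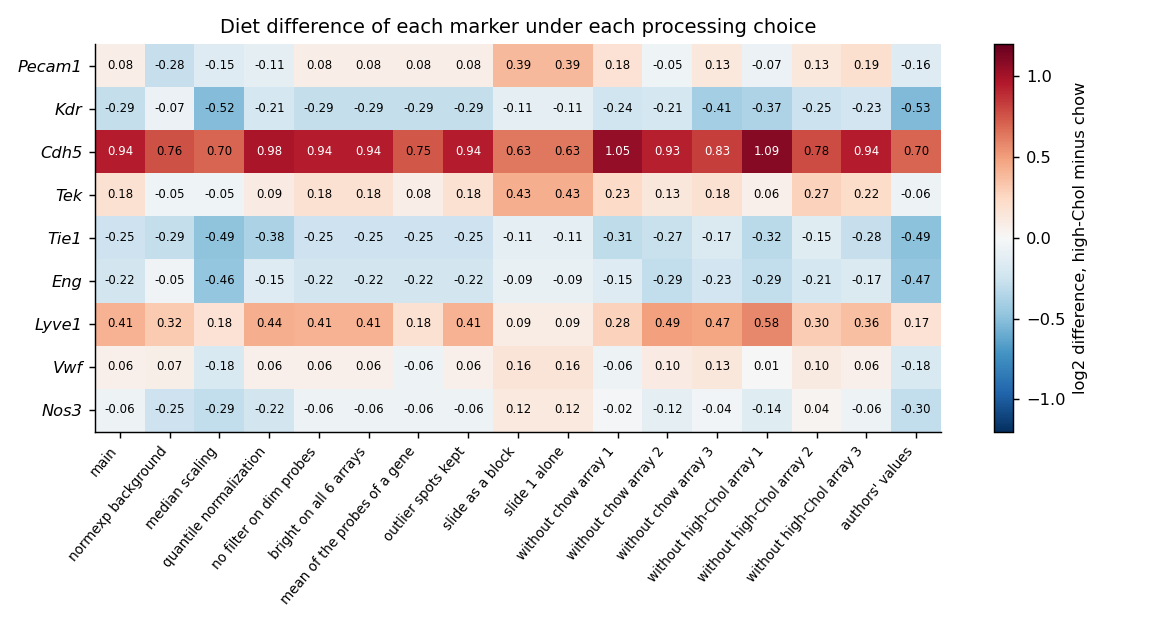
Each cell gives the log2 difference of high-Chol diet minus normal chow for 1 marker (rows) under 1 processing choice (columns), colored from blue (lower) to red (higher). Cdh5 is higher in every column, from 0.63 to 1.09, Kdr, Tie1 and Eng are lower in every column, and Pecam1, Tek, Vwf and Nos3 have both signs.

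The markers did not run together from array to array. Of the 36 pairs of markers, 20 had a positive and 16 a negative Pearson's r over the 6 arrays, with a median of 0.06. The highest r was 0.82, for Pecam1 and Tek, and the lowest -0.95, for Eng and Lyve1, a description of 6 arrays that share slides and scaling. Each marker was centred on its own mean and averaged over the 9 markers, and the 5 other genes closest to this mean profile among 14034 were Tex12, Ikbke, Orc3, Clic1 and Sipa1, with a Pearson's r from 0.973 to 0.990. These r are the highest of 14034 over 6 arrays, so high values follow from the choice. Tex12 had an r of 0.976 also after the diet means were removed, in the same arrays, which is no further support. The mean profile was highest on high-Chol array 1, at 0.12, and between -0.08 and 0.01 on the other five arrays.

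A list of 20 genes typical of sinusoidal endothelium was read from the same fit, and 19 were tested. By limma, 0 of 19 were called, against 2.92% of all genes, and 1 of 19 had an unadjusted p under 0.05, against 21.2%. Of the list, 10 were higher and 9 lower, and the median difference was 0.03, next to -0.02 for all genes. This median was -0.21 with median scaling and -0.013 with slide as a block, and ranged from -0.049 to 0.048 with each array left out. Wnt9b, a Wnt ligand of the liver vasculature, differed by 0.62 and Mrc1, the mannose receptor shared with macrophages, by 0.54, while Bmp2, the ligand that controls hepcidin in hepatocytes, differed by -0.33 and Flt4, VEGFR3, by -0.30. The summed signal of the 18 sinusoidal genes with a value on every array ranged from 70.2 to 73.5 times the 75th percentile on normal chow and from 69.7 to 71.3 on the high-Chol diet. Scaled to the median of each array it was 694 to 751 and 545 to 715.

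Of 37 tested genes with broad endothelial expression, 2 were called and both rose, against 2.69% of all genes that rose. Procr, the endothelial protein C receptor, read -1.26, -1.16 and -1.36 under normal chow versus -0.19, 0.60 and 0.53 under the high-Chol diet. The rise of 1.57 on the log2 scale was 2.97-fold (95% interval of the log2 difference 1.01 to 2.12, limma, adjusted p = 0.020). Cd93, a lectin-like receptor of endothelial and myeloid cells, read 0.57, 0.22 and 0.14 under normal chow versus 1.18, 1.55 and 1.32 under the high-Chol diet, a rise of 1.04 (95% interval 0.61 to 1.47, limma, adjusted p = 0.035). On both genes the diets were separate, and the high-Chol array of slide 1 was above each normal chow array. The largest differences in the other direction were those of Ptprb, the vascular endothelial phosphatase, at -0.45 (adjusted p = 0.241 by limma), and Aplnr, the apelin receptor, at -0.35 (adjusted p = 0.272 by limma). In all, 28 of the 37 genes were higher and 9 lower, with a median of 0.23, where the median of all genes was -0.02. The filter also kept genes well above background on the arrays of a single diet, so dim genes can enter through the diet where they are higher. The median of the list turned to -0.01 with median scaling, which remained above the median of all genes of -0.26 in that scaling. Their summed signal was 72.3 to 74.3 times the 75th percentile on normal chow and 77.8 to 83.8 on the high-Chol diet. Scaled to the median of each array, a choice made after seeing the data, it was 733 to 740 on normal chow and 609 to 798 on the high-Chol diet, with both slide 2 arrays below normal chow, so the direction depended on the scaling.

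In the VEGF and angiopoietin pathway, the route through Kdr and Tek, 0 of 16 tested genes were called by limma, against 2.92% of all genes, and 5 of 16 had an unadjusted p under 0.05, against 21.2%. Vegfa, the ligand of Kdr that hepatocytes secrete, read 2.41, 2.70 and 2.82 under normal chow versus 2.17, 2.04 and 2.02 under the high-Chol diet, which is a difference of -0.56 (95% interval -0.95 to -0.18, limma, adjusted p = 0.136). Plcg1, the phospholipase bound by activated Kdr, differed by -0.60 (limma, adjusted p = 0.122). Neither passed the adjustment. In this list 3 genes were separate and lower, Vegfa and Plcg1 among them, and 3 were separate and higher, Hey1 among them, where 25.8% of all genes were separate. Hey1, a Notch target in endothelial cells, differed by 0.87 (limma, adjusted p = 0.123) and Angpt2, the antagonist of Tek that endothelial cells release, by 0.75 (limma, adjusted p = 0.252). The median of the list was 0.11 and turned to -0.20 with a normexp background, -0.12 with median scaling, -0.076 when the slide was included as a block and -0.048 after quantile normalization. Angpt1, the activating ligand of Tek, was not well above background on any array.

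In the BMP9, ALK1 and endoglin pathway, the route through Eng, 1 of 15 tested genes was called, and was higher, against 2.69% of all genes. Tgfb1, the ligand TGF-beta 1 made by many cell types, read -2.38, -2.44 and -2.29 under normal chow versus -1.51, -1.12 and -1.51 under the high-Chol diet, a rise of 0.99 (95% interval 0.59 to 1.38, limma, adjusted p = 0.031). Id2, a target of BMP signaling, differed by 0.62, and the receptors Bmpr2 and Tgfbr2 by -0.14 and -0.08. The median of the list was 0.20.

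Genes of nitric oxide production and vascular tone, the route of Nos3, had a median difference of 0.13 over 20 tested genes. Klf2, a transcription factor induced by laminar flow, differed by 0.86 (limma, adjusted p = 0.262). Ddah2, which degrades an inhibitor of Nos3, differed by 0.55 (limma, adjusted p = 0.234), and the diets overlapped on both genes. Ece1, the endothelin converting enzyme, differed by -0.48 (limma, adjusted p = 0.176), with separate values of the diets, as for 25.8% of all genes.

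A broad list of vascular adhesion, clotting and fibrinolysis genes, read beside Vwf, included the most calls of the lists. These were 7 of 15 tested genes, all higher, against 2.69% of all genes, with a median of 0.73. The list was chosen with earlier results of these data known, so the count is a description only. Among those that rose were Fgl2, a fibrinogen-like protein, by 1.83, Cd63, a membrane protein of von Willebrand factor granules and lysosomes, by 1.62, the leukocyte adhesion molecule Icam1 by 1.60, Procr by 1.57, the adhesion molecule Vcam1 by 1.52 and Entpd1, an ectoenzyme that degrades ADP, by 1.24. Their adjusted p by limma ranged from 0.006 to 0.045. Vwf itself differed by 0.06, F3, tissue factor, by -0.76 (limma, adjusted p = 0.387) and Proz, protein Z, by -0.38 (limma, adjusted p = 0.228).

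Among 9 tested genes of hyaluronan handling, the ligand of Lyve1, 1 was called, and was higher, against 2.69% of all genes, and the median was -0.26. Cd44, the hyaluronan receptor of leukocytes and other cells, read 0.44, 0.31 and -0.01 under normal chow versus 1.36, 1.67 and 1.16 under the high-Chol diet, a rise of 1.15 (limma, adjusted p = 0.034). Stab2, the hyaluronan scavenger receptor of sinusoidal endothelium, differed by 0.27, and Itih1 and Itih4, which belong to the inter-alpha-trypsin inhibitor family made by hepatocytes, by -0.55 and -0.47. Of 22 genes of endothelial junctions, the partners of Cdh5 and Pecam1, 0 were called by limma, against 2.92% of all genes, 3 had an unadjusted p under 0.05, against 21.2%, and the median was 0.08. Icam2, an adhesion molecule of endothelial contacts, differed by 0.75 (limma, adjusted p = 0.065) and Rap1b, a small GTPase of junction control, by 0.54, while Cdh1, E-cadherin of epithelial cells, differed by -0.33 and Cd99l2 by -0.32.

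**Figure D5:**
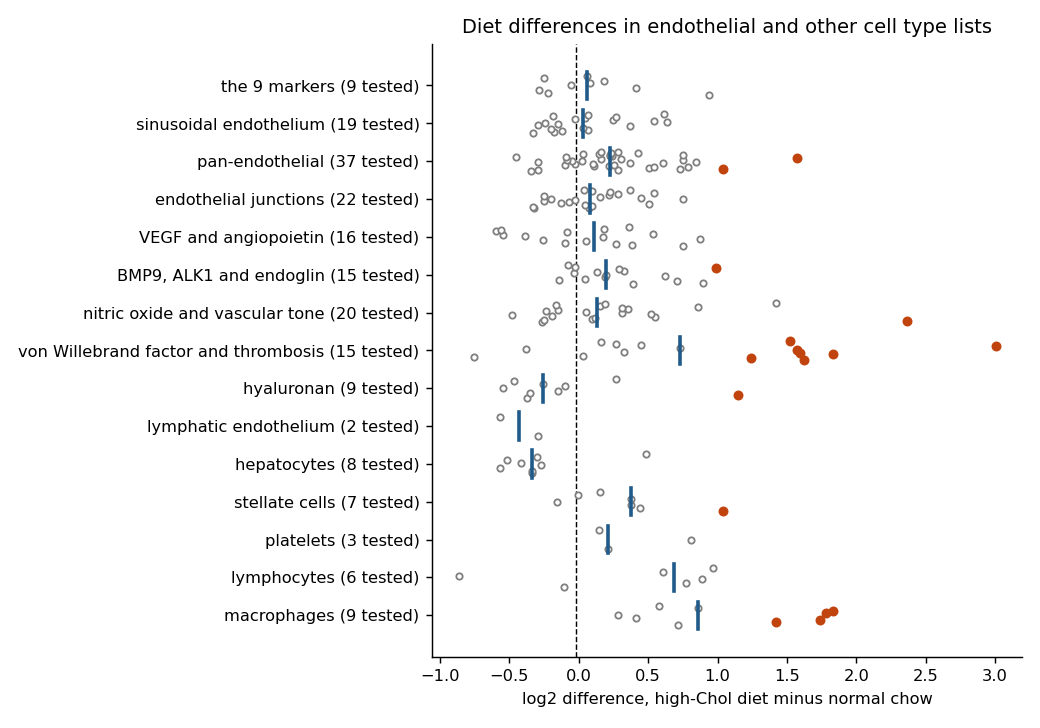
Each point is the log2 difference of high-Chol diet minus normal chow for 1 tested gene of a list, filled orange where the adjusted p from limma is under 0.05, with the median of the list as a blue bar and the median of all genes, -0.02, as a dashed line. The 9 markers center on 0.06 with no filled point, whereas the macrophage list centers on 0.86 with 4.

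Markers of other cells moved beside these genes. Of 9 tested macrophage markers, 9 were higher and 4 of them were called, against 2.69% of all genes that were called and higher. The called ones were Marco by 1.83, Lyz2 by 1.78, Cd68 by 1.74 and Cd5l by 1.42. The summed signal of the 8 with a value on every array was 158 to 186 times the 75th percentile on normal chow. It was 393 to 528 on the high-Chol diet. Itgam was not tested, as it was not well above background on all 3 arrays of either diet. The summed signal of the 9 endothelial markers was 11.7 to 12.8 and 12.5 to 13.3, and that of 8 hepatocyte markers 2851 to 3088 and 2119 to 2482. Of the 8 hepatocyte genes, limma called 0, and their median was -0.34. At an unadjusted p under 0.05 there were 3, not all in 1 direction, against 21.2% of all genes. With median scaling the sum of the endothelial markers was 115 to 129 and 97.0 to 134, that of the macrophage markers 1558 to 1874 and 4030 to 4111. Of the 7 stellate cell markers, 5 were higher and 1 of them was called, again beside 2.69% of all genes. This was Col1a1, by 1.04 (limma, adjusted p = 0.026), and the median of the list was 0.37. Of the 6 lymphocyte markers, limma called 0, with 2 at an unadjusted p under 0.05, against 21.2% of all genes, and a median of 0.69. Of 3 tested platelet markers and 2 lymphatic endothelial markers it called 0, with medians of 0.21 and -0.43. None of these had an unadjusted p under 0.05, against 21.2% of all genes. The share of all genes called was 2.92%, so lists of this size would hold few calls at that share. The platelet markers Itga2b, Gp5 and Gp9 were not tested for the same reason. The part of these cell types in the differences of Procr, Cd93, Icam1, Vcam1 and Cd44 was not tested.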

How the data were processed

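Liver RNA of 3 independent experiments per diet was read on 6 one-colour arrays. The authors deposited scanner files with spot intensity values, background-subtracted by Agilent Feature Extraction (9.5 for slide 1, 9.1 for slide 2) but without normalization across arrays. A second file that the authors deposited holds log2 values, 1 for each probe in each diet, after Gene Spring GX normalization and filtering. These were used as an alternative without a test.

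The background-subtracted intensity was divided by the 75th percentile of the non-control spots of its array and taken as log2. Control spots and outlier spots were left out, spots of a probe were averaged, probes that failed to exceed background clearly on every array of either diet were dropped, and a gene was read from its brightest remaining probe. The counts and medians of the lists therefore include genes that could pass through a single diet. Diet differences were tested by lmFit and eBayes of limma 3.58.1 without covariates, under R 4.3.3, with Benjamini-Hochberg adjustment over 16725 genes, or over all kept probes for single probes, and a threshold of 0.05. Other tools were data.table (version 1.17.8), Python 3.11.15, pandas 2.3.3, numpy 2.4.6 and matplotlib 3.10.9. This step was tested on simulated data with known differences.

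The members and the gene lists were chosen with earlier results of these data known. Of 212 list entries, 211 were matched. The accessions of 22951 probes were matched to current symbols (RefSeq genes of GRCm38.p6, used for names alone). Named genes are the 9 markers, of each list the called genes and the largest differences in each direction among genes well above background on all 6 arrays, and the 5 genes most alike in profile. Some single genes that this rule would name, and 1 count of calls that rests on such a gene, are not reported here. Genes mentioned for a signal near background were picked with that signal known. Alternatives comprised a normexp background (offset 50), median scaling, quantile normalization, other probe filters, the mean of a gene's probes, each probe by itself, outlier spots kept, slide as a block, slide 1 alone, each array left out, the methods' t-test, a trended and robust variance prior and the authors' values. The number of arrays limits the precision.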

Additional observations from a re-analysis of the deposited data

How the results depend on the processing

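Of the markers, Cdh5 kept its direction in 18 of 18 alternatives, from 0.56 to 1.09, and Kdr, Tie1 and Eng in 17 of 17. Some alternatives left these values unchanged or repeated another, as slide 1 alone repeated the slide block. The counts are therefore no measure of stability. Lyve1 turned with its other probe alone, and Pecam1, Tek, Vwf and Nos3 had both signs. The number of markers called, 0, became 1 (Cdh5) with a trended and robust variance prior (3.22% of all genes) and ranged from 0 to 1 with each array left out, being 1 without high-Chol array 1 (18.4% of all genes). The number without overlap, 1, became 2 (Cdh5 and Tek) with the mean of the probes of a gene (25.2% of all genes), and ranged from 1 to 5 with each array left out, where the share of all genes was 29.4% to 54.2% and the 5 stood beside 54.2%. The median of the markers, 0.06, was -0.18 after median scaling, -0.11 after quantile normalization and -0.18 in the authors' values, and ranged from -0.070 to 0.126 with each array left out. The median of all genes was -0.26 with median scaling and -0.11 with a normexp background. Median scaling lowers the difference of each gene by about the same amount, so the signs of the nitric oxide, BMP9 and junction list medians depend on it. Median scaling turned the medians of the sinusoidal list to -0.21, of the pan-endothelial list to -0.011 and of the VEGF and angiopoietin list to -0.12. The last of these was -0.20 with a normexp background, -0.076 when the slide was a block and -0.048 after quantile normalization, and ranged from -0.086 (without high-Chol array 2) to 0.197 with each array left out. The 488 calls over all genes fell to 0 with a normexp background, 26 without a filter on dim probes, 11 with slide as a block, 4 on slide 1 alone and 5 with the methods' t-test (2789 unadjusted), and ranged from 42 (without normal chow array 2) to 3072 (without high-Chol array 1). On slide 1 alone the lone high-Chol array was assumed to vary like the others. With median scaling, chosen here after seeing the data, the log2 difference of the summed signal turned from 0.07 to -0.17 for the markers and from 0.13 to -0.11 for the pan-endothelial list. The cause of these changes was not tested. No paired analysis was possible because no label ties an array of one diet to an array of the other. Dim probes limit what can be read: 3 of the 16 marker probes gave no measured level.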
